A study of Mus musculus with 27 samples.

Results

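Day 10 embryoid bodies of a mouse line labelled Sam68 KO were compared with day 10 embryoid bodies of a Quaking KO line, 3 libraries against 3, out of 27 libraries in the series. The libraries of each group were taken by their labels, the knock-out and the time point. The comparison itself was chosen with earlier results of these data known. Both lines were made from E14 mouse embryonic stem cells, 1 labelled as a knockout of Sam68 (gene Khdrbs1) and 1 as a knockout of Quaking (gene Qk), and carried no other stated allele or treatment. The 3 wild-type E14 libraries of day 10 entered the same fit as a reference level, and the day 0 stem cell libraries of both lines served to ask which differences preceded differentiation. Each knockout is represented by 1 line, so the knockout and the clone cannot be told apart. The labels call the replicates biological, and the p-values below set each difference against the spread between these samples.

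Sam68 and Quaking are STAR proteins, RNA-binding proteins that act in splicing, transport, stability and translation of messenger RNA. Quaking is known in mice for roles in myelination and in vessels of the yolk sac, and in muscle cells it takes part in splicing of contractile protein transcripts. Embryoid bodies are aggregates of stem cells that form tissues of all germ layers, among them beating heart muscle, yolk sac endoderm around the surface, blood and vessels. Visceral endoderm takes up and secretes carrier proteins for the embryo, and parietal endoderm lays down a thick basement membrane. In a bulk library, fewer cells of a type and less RNA per cell cannot be told apart.

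The day 10 libraries held 73510174 to 77257496 counts under the Sam68 label, 64413963 to 71603167 in Quaking KO and 66399271 to 71345094 in wild type. The numbers that name the libraries fall in a range of their own for the Sam68-labelled line, apart from the other lines, so an effect of that library series cannot be told apart from one of the line. Pseudogenes, whose reads can also match their parent genes, showed a median log2 fold change (Sam68-labelled over Quaking KO) of −2.23, and 72.3% of the 1807 tested were lower. The statements below therefore rest on protein-coding genes of which at most 5% of the 50-base transcript windows occur in another gene, called little-shared genes here. Their median log2 fold change was 0.00742. Quaking KO replicate 2 stood apart in its long noncoding share, 5.17% of counts against 1.25% and 1.28% in the other Quaking KO libraries. A single gene, Gm42418, held 3.94% of the counts of that library, against 0.0419% and 0.0494% in the other Quaking KO libraries. Over a subset of 2000 genes, the first principal component (84.5% of their variance) set the Sam68-labelled libraries against the other 6, and the second held 8.75%.

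The transcript of the targeted gene was still counted under the Sam68 label. Khdrbs1 (chromosome 4, 129703164 to 129742303, GRCm38) had 102, 105 and 105 CPM (counts scaled to library size) in the Sam68-labelled libraries, 114, 112 and 114 CPM in Quaking KO and 159, 105 and 107 CPM in wild type. The Sam68-labelled values lay just below the Quaking KO values without overlap, and the log2 fold change of −0.12 ± 0.129 (standard error, SE) did not pass the test (adjusted p = 0.451, edgeR). Wild-type replicate 1, the highest library, enters the estimate of the spread. Khdrbs1 was called lower when that library was left out or when the 6 compared libraries were fitted alone, at a similar size, and the adjusted p (edgeR, DESeq2) ranged between 0.0113 and 0.645 over all alternatives. In stem cells the order of the lines was the reverse. Khdrbs1 had 17061 counts in Sam68-labelled stem cells against 12750 in Quaking KO stem cells (sums over the libraries of each line). The Sam68-labelled stem cell libraries were the smaller ones. From stem cells to embryoid bodies the log2 fold change of Khdrbs1 changed by −0.51 ± 0.0615 (adjusted p = 4.59e-06, edgeR). Gene-level counts do not resolve the loss of part of a gene or of its protein, and "Sam68-labelled" is used below.

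Qk (chromosome 17, 10202601 to 10319854, GRCm38) was higher in the Sam68-labelled libraries, at 279, 274 and 293 CPM against 208, 214 and 225 CPM in Quaking KO. The difference was 0.39 ± 0.0634 on the log2 scale (adjusted p = 0.000336), and the wild-type libraries had 306, 270 and 286 CPM. Qk was thus lower but still abundant in the embryoid bodies labelled for its loss. Of the other STAR genes, Khdrbs3, which encodes the Sam68 relative SLM2, had 11.6, 11.8 and 11.8 CPM under the Sam68 label, against 21, 22.3 and 22.8 CPM in Quaking KO and a wild-type mean of 17.2 CPM. Khdrbs3 was lower by this test (−0.91 ± 0.0846, adjusted p = 5.25e-06). Khdrbs2, which encodes SLM1, was lower too (−2.27 ± 0.272), at 0.271 to 0.417 CPM against 1.5 to 1.6 CPM in Quaking KO. Sf1, a splicing factor that recognises the branch point, did not pass (−0.02 ± 0.0869, adjusted p = 0.89), with overlapping libraries.

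Of 20503 genes tested, 11609 (56.6%) were called at an adjusted p under 0.05, 5309 higher (25.9%) and 6300 lower (30.7%) in the Sam68-labelled libraries. Among the 11604 little-shared genes, 7027 were called (60.6%), 3649 higher (31.4%) and 3378 lower (29.1%). At 2-fold or more, 938 of them were higher (8.08%) and 1206 lower (10.4%). The counts of list members below are read against these shares. In 72.5% of little-shared genes the 3 libraries of one line did not overlap the 3 of the other. Measured against wild type, 54% of little-shared genes were called in the Sam68-labelled line and 15.5% in Quaking KO. Both of these comparisons use the same wild-type libraries, so their values are set side by side only.

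**Figure D1:**
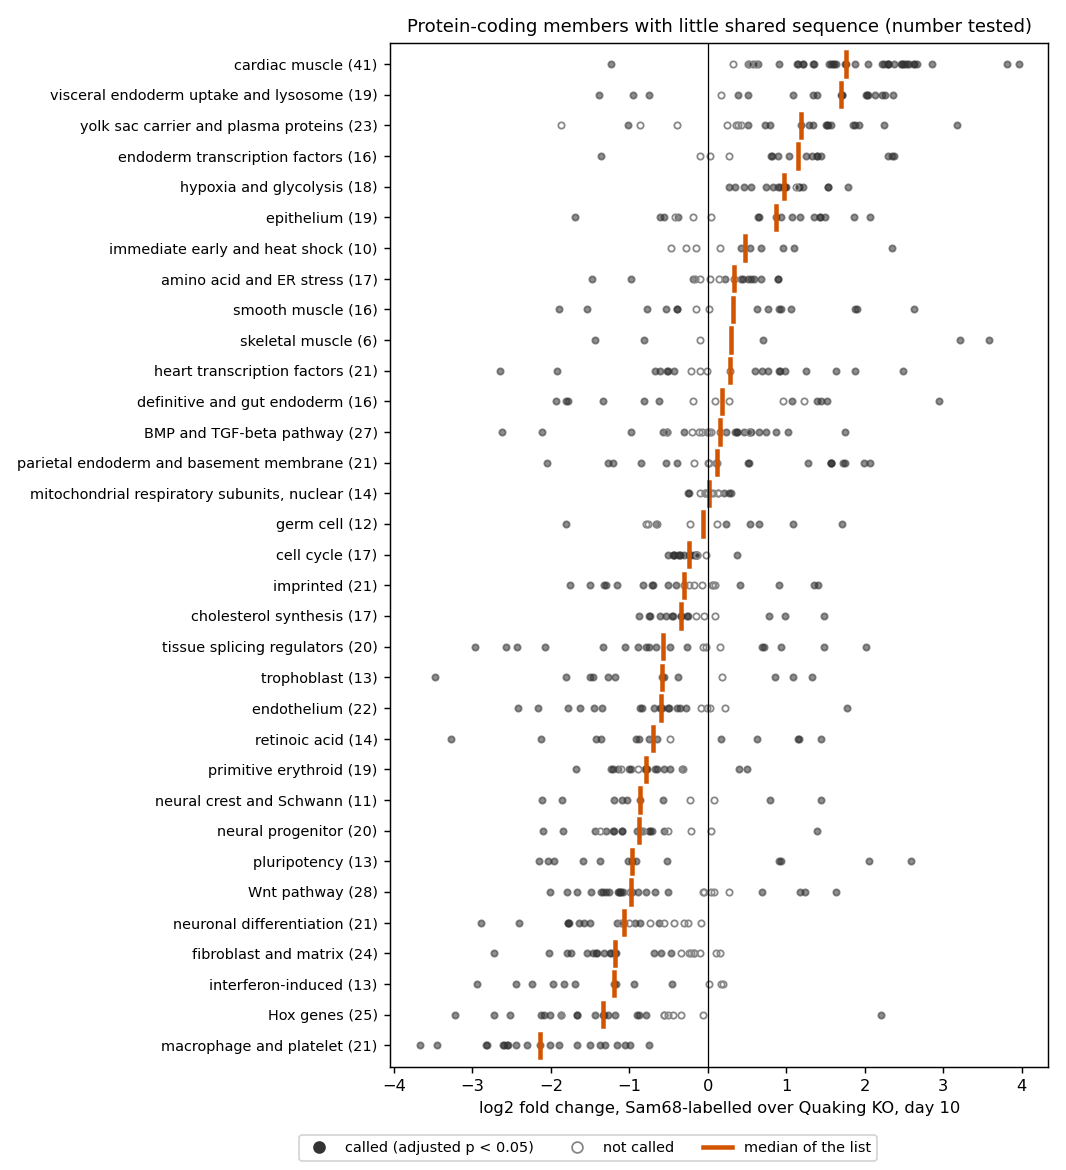
Log2 fold change (Sam68-labelled over Quaking KO, day 10) of each little-shared member of the gene lists with at least 6 such members tested, one point per gene, filled where called and open where not, with the median of the list as an orange bar. Cardiac muscle and the yolk sac endoderm lists lie to the right, and macrophage, Hox, interferon and fibroblast lists to the left.

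Heart muscle genes were higher in the Sam68-labelled embryoid bodies across sarcomere, calcium handling and conduction. Of 41 little-shared members of the cardiac muscle list, 37 were higher and 1 lower, with a median log2 fold change of 1.76, where 31.4% of all little-shared genes were higher. Against wild type, 34 of the 41 were higher and 1 lower in the Sam68-labelled line (median 0.994), while 2 were higher and 26 lower in Quaking KO (median −0.773). Of all little-shared genes, 28.4% were higher and 25.6% lower than wild type under the Sam68 label, and 6.55% were higher and 8.93% lower in Quaking KO. The summed level of all 46 members tested was 6541 to 7125 CPM under the Sam68 label, 1213 to 2090 CPM in Quaking KO and 3089 to 3183 CPM in wild type, so the lines stood on either side of wild type in every library. Ckm and Sln did not pass the filter on low counts, with at most 5 and 22 counts in any library.

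The largest rise among the named genes was in Actn2, which encodes the Z-disc protein alpha-actinin 2. Actn2 had 70.1, 58.7 and 67.9 CPM in the Sam68-labelled libraries, against 3.25, 3.88 and 5.48 CPM in Quaking KO and a mean of 24.7 CPM in wild type. The lowest Sam68-labelled library was more than 10 times the highest Quaking KO library, and the log2 fold change was 3.96 ± 0.188 (adjusted p = 5.94e-08). Myom1, which encodes the M-band protein myomesin, had 125, 123 and 119 CPM against 6.94, 7.94 and 11.3 CPM in Quaking KO (3.81 ± 0.146), with a mean of 51 CPM in wild type. Thin filament genes followed the same order of lines. Actc1, cardiac alpha-actin, had 914, 900 and 762 CPM under the Sam68 label against 65.6, 106 and 185 CPM in Quaking KO (2.85 ± 0.293, adjusted p = 1.1e-05). The 3 Quaking KO libraries differed from each other almost 3-fold in Actc1, replicate 1 being the lowest and replicate 3 the highest, and the same ranking held in Actn2, Myom1, Tnnt2 and Myl7.

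Tnnt2, cardiac troponin T, had 294, 304 and 283 CPM against 45.2, 57.4 and 77.2 CPM in Quaking KO (2.29 ± 0.18). Tnni3, the troponin I of mature heart, had 34.8, 38.2 and 32.8 CPM against 3.46, 4.63 and 8.51 CPM in Quaking KO (2.67 ± 0.252). Tnni1, the troponin I of the early heart, differed less, at 241, 248 and 208 CPM against 83.5, 96.3 and 95.7 CPM in Quaking KO (1.34 ± 0.108). Both troponin I genes had non-overlapping libraries, and the test of one gene's difference against the other's was not run. Atrial and ventricular light chains were both higher. Myl7, the atrial regulatory light chain, had 349, 365 and 294 CPM against 30.8, 58.1 and 88 CPM in Quaking KO (2.51 ± 0.301). Myl2, the ventricular one, had 65.1, 63.3 and 77.3 CPM against 14.8, 20.2 and 32.3 CPM in Quaking KO (1.61 ± 0.225). The giant spring protein gene Ttn averaged 914 CPM under the Sam68 label, against 223 CPM in Quaking KO (2.04 ± 0.248). Myh6, Myh7, Nppa, Pln and Nexn share more than 5% of their windows with other genes and were left out of the count above. All 5 were called higher too, with log2 fold changes between 2.15 for Pln and 2.90 for Nppa.

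Calcium handling and ion channel genes were higher as well. Ryr2, the calcium release channel of the sarcoplasmic reticulum, had 174, 178 and 161 CPM against 28.6, 31.1 and 44.5 CPM in Quaking KO (2.30 ± 0.196). Atp2a2, the calcium pump SERCA2, had 590, 632 and 559 CPM against 224, 216 and 254 CPM in Quaking KO (1.36 ± 0.0845). Slc8a1, the sodium-calcium exchanger, had 338, 325 and 277 CPM against 69.8, 82.6 and 103 CPM in Quaking KO (1.88 ± 0.13). All 3 genes had no overlap between the lines. Cacna1c (1.13 ± 0.111) and Kcnh2 (0.65 ± 0.0747), which encode channels of the cardiac action potential, were called higher. The pacemaker channel gene Hcn4 was called at 0.51 ± 0.15 (adjusted p = 0.0127), with 36.5, 44.5 and 29.8 CPM against 28.3, 28.6 and 20.7 CPM in Quaking KO. Its lowest Sam68-labelled library lay only just above the highest Quaking KO library.

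Exceptions within the list were few. Corin, the protease that activates natriuretic peptides, was lower, at 8.34, 7.87 and 6.9 CPM against 21.3, 17.6 and 15.6 CPM in Quaking KO (−1.24 ± 0.125, adjusted p = 9.61e-06). Tcap, Lmod2 and Kcnq1 were not called, with log2 fold changes of 0.32, 0.53 and 0.61 and overlapping libraries. Nppb was higher in both knockout lines than in wild type, by 2.52 under the Sam68 label and 1.31 in Quaking KO, and higher under the Sam68 label than in Quaking KO (1.21 ± 0.18).

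**Figure D2:**
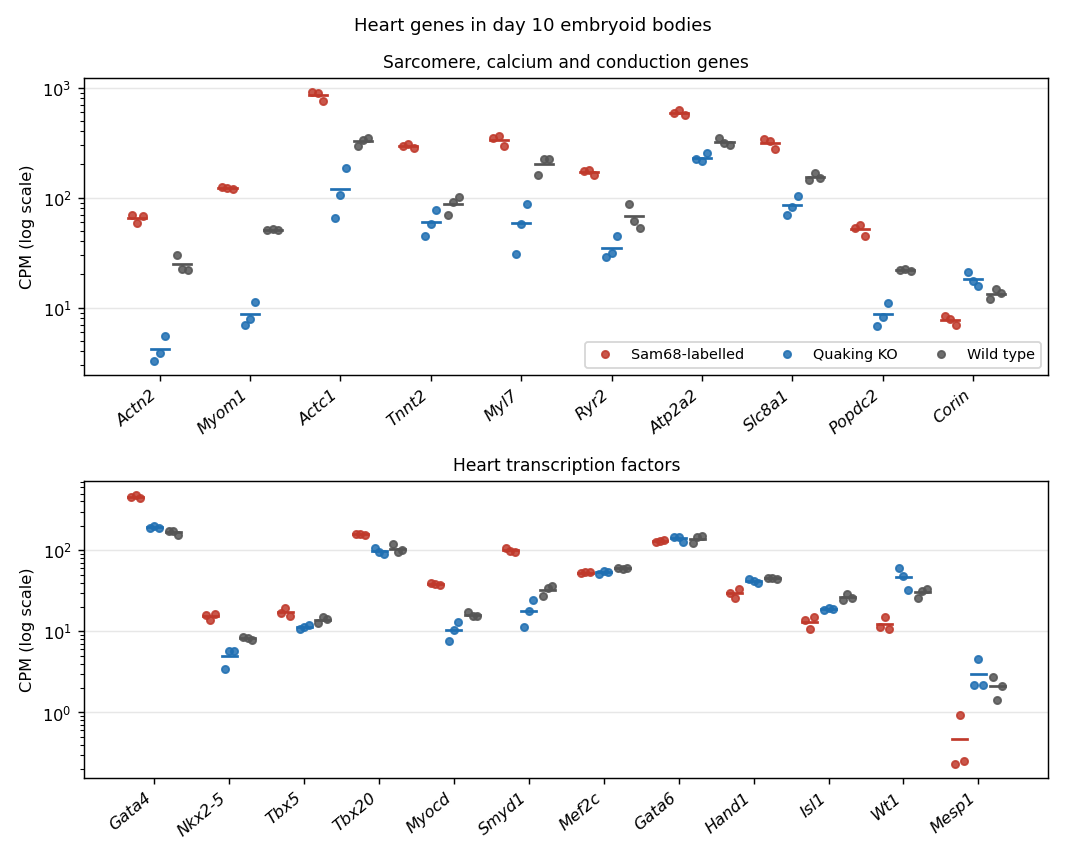
CPM on a log axis in each day 10 library for 10 heart muscle genes (top) and 12 heart transcription factors (bottom), Sam68-labelled in red, Quaking KO in blue, wild type in grey, with a line at the mean of 3 libraries. The wild-type mean lies between those of the knockout lines for all 10 muscle genes, while Gata6 lies at a similar level in all 3 lines.

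Heart transcription factors divided, 10 of 21 little-shared members higher and 7 lower (median 0.28). Those higher included Nkx2-5, the homeobox factor of the cardiac lineage, at 16.1, 13.8 and 16.2 CPM against 3.4, 5.72 and 5.74 CPM in Quaking KO (1.64 ± 0.168, adjusted p = 1.08e-05). Myocd, the coactivator of serum response factor, had 39.6, 37.9 and 37.2 CPM against 7.55, 10.5 and 13.2 CPM in Quaking KO (1.88 ± 0.154). Smyd1, a muscle methyltransferase needed for the heart in mice, had 105, 99.2 and 94.7 CPM against 11.4, 17.7 and 24.2 CPM in Quaking KO (2.49 ± 0.217). In each of these 3 genes every Sam68-labelled library was above every Quaking KO library. Gata4, which acts in both heart and endoderm, had 448, 482 and 442 CPM against 187, 201 and 187 CPM in Quaking KO and a wild-type mean of 167 CPM (1.25 ± 0.0656, adjusted p = 1.05e-07). Tbx5 (0.60 ± 0.0975) and Tbx20 (0.69 ± 0.0891) were higher by less.

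Factors of early mesoderm, progenitors and the outer heart layer went both ways. Mesp1, of the first cardiac mesoderm, averaged 0.47 ± 0.398 CPM against 2.98 ± 1.37 CPM in Quaking KO (SD, n = 3 each), a log2 fold change of −2.65 ± 0.489. Wt1, of the epicardium, had 11.3, 14.9 and 10.7 CPM against 60.7, 47.6 and 32.4 CPM in Quaking KO (−1.93 ± 0.209). Isl1, of the second heart field, had 13.7, 10.8 and 14.9 CPM against 18.1, 19.2 and 19 CPM in Quaking KO (−0.52 ± 0.109, adjusted p = 0.00178). None of the 3 genes overlapped between the lines. Hand1 (−0.51 ± 0.0838), Hey1 (−0.67 ± 0.125), Tcf21 (−0.61 ± 0.152) and Tbx2 (−0.43 ± 0.0627) were lower too. Tbx1, of the second heart field, was higher (0.93 ± 0.257), and so was the epicardial factor Tbx18 (0.80 ± 0.234), which is not little-shared. Tcf21, of epicardial and fibroblast progenitors, was below wild type in both knockout lines, at means of 1.07 CPM under the Sam68 label, 1.63 CPM in Quaking KO and 9.08 CPM in wild type. Mef2c did not pass (−0.01 ± 0.052, adjusted p = 0.936), with 52.6, 53.6 and 53.2 CPM against 51.1, 54.8 and 54.2 CPM in Quaking KO.

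Promoters of heart and endoderm genes are printed because these members differed together between the lines. Of the 42 cardiac muscle genes called higher, little-shared or not, 34 had an entry in the RefSeq promoter table (GRCm38.p6), with 43 promoters that run from 250 bases before to 50 bases after the start. The CArG box, the element bound by serum response factor, was found on either strand in 6 of the 43 (14%), against 1.63% of all 32851 promoters of that length. These 6 belong to 5 genes, since both Ldb3 promoters matched and overlap each other, so 1 site may count in both. The MEF2 site was found in 4 (9.3%, against 3.19%) and the GATA element AGATAA in 9 (20.9%, against 11.2%). The forkhead element TGTTTAC was found in 0 of the 43 and in 3.65% of all promoters. Among 20 promoters of 16 of the 17 yolk sac carrier genes called higher, TGTTTAC was found in 3 (15%), AGATAA in 1 (5%), the MEF2 site in 1 and the CArG box in 0. The 3 with TGTTTAC belong to Apoa2, Apoe and Rbp4, and each of these genes also has promoters among the 20 that lack it. Over all promoters, matches to different motifs overlapped in 2 promoters for GATA with MEF2 and in 2 for forkhead with CArG. A match is a description of the sequence and not evidence of binding. Below, capitals mark the CArG box in Actc1 (chr2:114052826-114053125, minus strand), the GATA element on the reverse strand and the CArG box in Myom1 (chr17:71019307-71019606, plus strand), and the forkhead element on the reverse strand in Rbp4 (chr19:38125272-38125571, minus strand) and Apoe (chr7:19698349-19698648, minus strand).
Actc1: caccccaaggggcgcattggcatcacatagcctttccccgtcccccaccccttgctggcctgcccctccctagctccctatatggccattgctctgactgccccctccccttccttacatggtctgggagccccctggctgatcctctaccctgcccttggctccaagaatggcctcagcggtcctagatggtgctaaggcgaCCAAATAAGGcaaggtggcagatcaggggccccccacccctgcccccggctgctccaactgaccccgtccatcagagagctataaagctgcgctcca
Myom1: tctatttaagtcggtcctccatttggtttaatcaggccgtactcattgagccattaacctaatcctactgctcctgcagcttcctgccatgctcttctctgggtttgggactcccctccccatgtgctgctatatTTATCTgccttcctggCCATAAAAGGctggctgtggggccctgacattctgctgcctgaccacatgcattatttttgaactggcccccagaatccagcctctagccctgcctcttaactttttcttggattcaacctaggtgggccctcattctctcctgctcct
Rbp4: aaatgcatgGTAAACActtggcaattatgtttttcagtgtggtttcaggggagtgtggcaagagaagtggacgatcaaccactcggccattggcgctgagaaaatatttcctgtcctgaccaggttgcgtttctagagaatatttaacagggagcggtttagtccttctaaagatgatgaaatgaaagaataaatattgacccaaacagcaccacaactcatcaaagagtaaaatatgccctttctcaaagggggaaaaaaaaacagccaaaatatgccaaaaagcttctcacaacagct
Apoe: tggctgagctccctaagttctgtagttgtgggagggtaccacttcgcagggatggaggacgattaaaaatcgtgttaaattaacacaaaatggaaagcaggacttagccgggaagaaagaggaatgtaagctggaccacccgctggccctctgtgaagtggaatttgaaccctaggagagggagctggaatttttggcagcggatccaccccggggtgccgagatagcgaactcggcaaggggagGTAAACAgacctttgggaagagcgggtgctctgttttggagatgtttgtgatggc

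Other muscle programmes did not differ as one. Smooth muscle genes were 8 higher and 6 lower of 16 (median 0.324). Acta2, smooth muscle actin, had 426, 429 and 334 CPM against 92.4, 102 and 123 CPM in Quaking KO (1.91 ± 0.156). Mylk, the myosin light chain kinase, was lower, at 9.53, 9.24 and 13.1 CPM against 48.6, 39 and 30.7 CPM in Quaking KO (−1.90 ± 0.17). Of 15 skeletal muscle genes, 9 did not pass the filter, the myogenic regulators Myod1 and Myog among them, with at most 5 counts in any library. Acta1, skeletal alpha-actin, which fetal heart muscle also makes, was higher at 27.4, 24.9 and 17.5 CPM against 1.43, 1.92 and 2.45 CPM in Quaking KO (3.59 ± 0.227).

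Yolk sac endoderm genes were higher as well. Of 16 little-shared endoderm transcription factors, 12 were higher and 1 lower in the Sam68-labelled libraries (median 1.15). Among 19 genes of uptake and lysosome in visceral endoderm, 15 were higher and 3 lower (median 1.70), and among 23 carrier and plasma protein genes 15 were higher and 1 lower (median 1.19). Against wild type, the Sam68-labelled line had 13 of the 19 uptake genes higher and 3 lower (median 1), while Quaking KO had 0 higher and 14 lower (median −0.696). For the carrier genes, these counts were 12 higher and 4 lower under the Sam68 label (median 0.545) and 0 higher and 12 lower in Quaking KO (median −0.721).

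Hnf4a, the nuclear receptor that drives visceral endoderm differentiation, had 119, 118 and 111 CPM against 19.6, 23.8 and 23.8 CPM in Quaking KO (2.38 ± 0.0979, adjusted p = 2.87e-08). Foxa3, a forkhead factor of endoderm, had 26.4, 25 and 23.6 CPM against 4.01, 6.11 and 5.15 CPM in Quaking KO (2.30 ± 0.13). Wild-type means of Hnf4a and Foxa3 were 39.7 and 8.51 CPM, between the knockout lines. Gata6, of primitive endoderm and heart, did not pass at day 10 (−0.10 ± 0.0842, adjusted p = 0.351), with 128, 131 and 135 CPM against 148, 147 and 127 CPM in Quaking KO. Cebpa was the factor that was lower (−1.36 ± 0.162), and Hhex (0.27 ± 0.116, adjusted p = 0.0673) and Nr1h4 (0.03 ± 0.343, adjusted p = 0.946) did not pass.

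The secreted carriers varied widely among themselves. Rbp4, the retinol carrier, had 284, 241 and 198 CPM against 24.2, 29.4 and 26 CPM in Quaking KO (3.18 ± 0.191, adjusted p = 2.4e-07). Apoe, of lipid transport, had 2599, 2563 and 2271 CPM against 580, 748 and 731 CPM in Quaking KO (1.85 ± 0.128). Ttr, the thyroid hormone carrier, had 325, 271 and 223 CPM against 76.9, 118 and 88.8 CPM in Quaking KO (1.53 ± 0.163). Apob, the scaffold of large lipoproteins, differed less, at 1991, 1537 and 1380 CPM against 909, 979 and 937 CPM in Quaking KO (0.80 ± 0.164). Afp, the classic marker of yolk sac and fetal liver, did not pass and leaned the other way (−0.39 ± 0.209, adjusted p = 0.13), with 168, 104 and 121 CPM against 124, 231 and 163 CPM in Quaking KO. Alb was near 0 in both lines except for 6.41 CPM in Quaking KO replicate 3, and Apoh and Apoc2 did not pass the filter.

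Receptors of uptake split by gene. Amn, the anchor of the cubilin receptor, had 72, 72.9 and 68 CPM against 13.6, 19.7 and 18.9 CPM in Quaking KO (2.03 ± 0.135). Cubn itself, the cubilin gene, had 368, 372 and 337 CPM against 234, 235 and 287 CPM in Quaking KO and a mean of 490 CPM in wild type (0.51 ± 0.154, adjusted p = 0.0149). Lrp2, megalin, did not pass (0.16 ± 0.12, adjusted p = 0.265), with overlapping libraries. Dab2, the endocytic adaptor, had 435, 468 and 384 CPM against 132, 124 and 135 CPM in Quaking KO (1.72 ± 0.107). Clic6 had the largest difference of the list, at 400, 423 and 359 CPM against 66.9, 78.1 and 84.4 CPM in Quaking KO (2.36 ± 0.106). Fcgrt, the neonatal Fc receptor, was lower, at 15.6, 15.1 and 14.5 CPM against 32, 28.1 and 27.4 CPM in Quaking KO (−0.95 ± 0.0935).

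Basement membrane genes moved by chain. Of 21 little-shared members of the parietal endoderm list, 10 were higher and 6 lower (median 0.117). Col4a1, the main collagen IV chain, had 6063, 6900 and 6755 CPM against 1002, 1550 and 2134 CPM in Quaking KO (2.07 ± 0.216). Lamb1, a chain of the early embryonic laminin, had 1396, 1575 and 1554 CPM against 361, 444 and 569 CPM in Quaking KO (1.72 ± 0.156), and Lama1 (1.57) and Lamc1 (1.28), its other chains, were higher too. Col4a2 averaged 2346 CPM against 592.3 CPM in Quaking KO (1.99). The collagen IV chains of specialised membranes were lower, with log2 fold changes of −2.05 for Col4a3, −1.27 for Col4a4, −0.39 for Col4a5 and −0.53 for Col4a6. Of these, Col4a3 (means of 0.13 CPM against 0.55 CPM in Quaking KO) and Col4a4 (0.087 against 0.21 CPM) were barely counted in either line. Sparc, which binds collagen, had 2859, 3225 and 3128 CPM against 943, 992 and 1156 CPM in Quaking KO (1.57 ± 0.115). Definitive and gut endoderm genes were mixed, 5 higher and 6 lower of 16. Goosecoid (Gsc), an anterior organiser factor, was lower (−1.81 ± 0.211), and Tff3, a trefoil peptide of mucus-secreting gut epithelium, was higher at 33.8, 29.5 and 23 CPM against 2.99, 5.2 and 3.06 CPM in Quaking KO (2.95 ± 0.208).

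**Figure D3:**
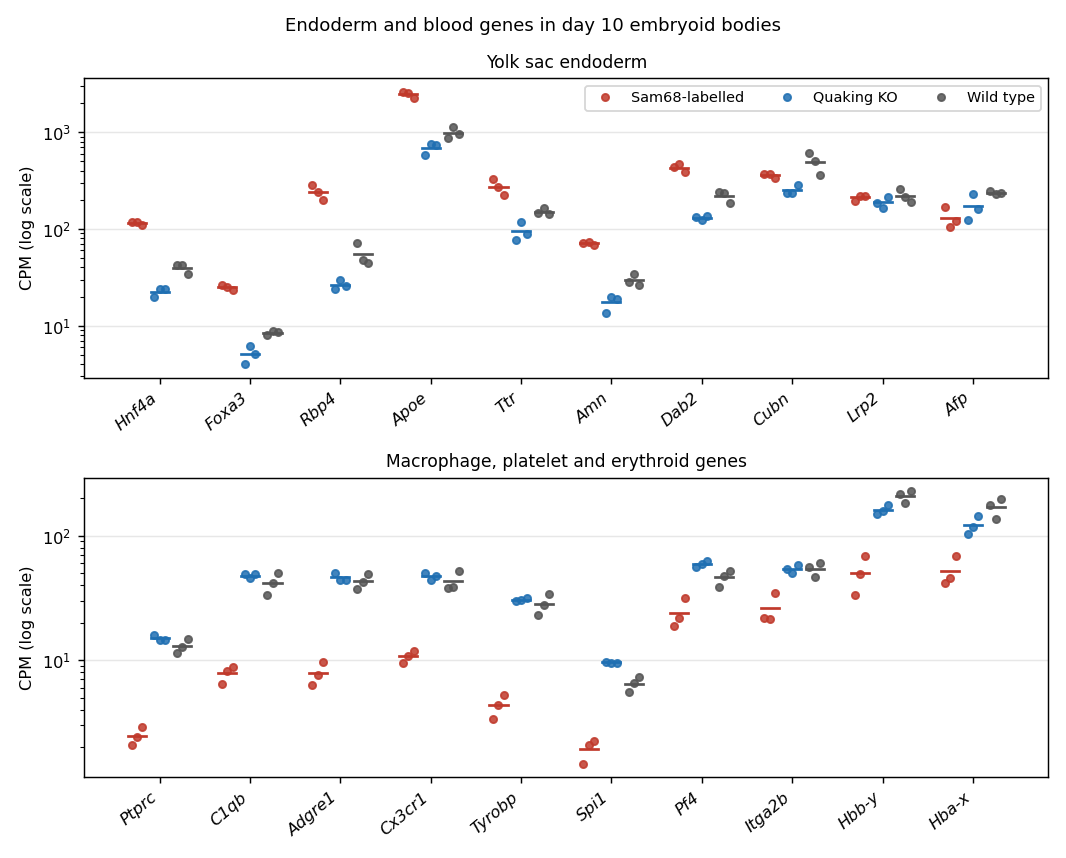
CPM on a log axis in each day 10 library for 10 yolk sac endoderm genes (top) and 10 blood genes (bottom), Sam68-labelled in red, Quaking KO in blue, wild type in grey, with a line at the mean of 3 libraries. For the endoderm genes from Hnf4a to Dab2 wild type lies between the lines, whereas for the macrophage genes Quaking KO and wild type lie near each other and the Sam68-labelled libraries below both.

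Blood genes were lower in the Sam68-labelled libraries. All 21 little-shared members of the macrophage and platelet list were lower (median −2.14, where 29.1% of all little-shared genes were lower). Against wild type, all 21 were lower in the Sam68-labelled line (median −1.74), while 3 were higher and 0 lower in Quaking KO (median 0.177). The summed level of the whole list, 24 genes, was 146.4 to 203.6 CPM under the Sam68 label, 621.1 to 663.3 CPM in Quaking KO and 492.3 to 647 CPM in wild type. Ptprc, the pan-leukocyte antigen CD45, had 2.1, 2.4 and 2.92 CPM against 15.9, 14.4 and 14.6 CPM in Quaking KO (−2.60 ± 0.134, adjusted p = 9.3e-08). C1qb, a complement chain made by macrophages, had 6.39, 8.24 and 8.81 CPM against 48.9, 45.6 and 48.9 CPM in Quaking KO (−2.61 ± 0.15). Spi1, the myeloid factor PU.1, had a log2 fold change of −2.30 ± 0.156. Smaller differences were seen in Cd68 (−0.99), a lysosomal protein, and Itga2b (−1.05), a platelet integrin.

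Genes of macrophages also led the largest differences downward. Clec12a, an inhibitory lectin of myeloid cells, had 0.339, 0.35 and 0.334 CPM against 6.32, 4.98 and 4.24 CPM in Quaking KO (−3.92 ± 0.206). Ctss, the lysosomal protease cathepsin S, had 0.433, 0.458 and 1.07 CPM against 8.73, 7.23 and 8.87 CPM in Quaking KO (−3.67 ± 0.272), and Cybb, a subunit of the phagocyte oxidase, had 0.623, 0.66 and 1.42 CPM against 10.3, 9.83 and 12.7 CPM (−3.61 ± 0.248). In Msr1, a scavenger receptor, Quaking KO also stood above wild type. Msr1 had 1.16, 1.44 and 1.35 CPM under the Sam68 label, against 14.9, 15.3 and 14.4 CPM in Quaking KO and 3.71, 4.69 and 4.83 CPM in wild type. The log2 fold change of Msr1 was −3.50 ± 0.127 between the knockout lines and 1.76 for Quaking KO over wild type. Interferon-induced genes, which macrophages can express, were 0 higher and 10 lower of 13 (median −1.19). The macrophage list fell in the same libraries, and its part in that difference was not tested.

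Of 19 primitive erythroid genes, 14 were lower and 2 higher (median −0.785). The embryonic globin Hbb-y had 33.4, 49.5 and 68.4 CPM against 148, 156 and 177 CPM in Quaking KO (−1.67 ± 0.203), and Hba-x had 41.3, 45.9 and 68.1 CPM against 103, 118 and 144 CPM (−1.23 ± 0.193). Klf1, the erythroid transcription factor, was lower as well (−1.14 ± 0.191). Fech, the last enzyme of haem synthesis, which other tissues also need, was higher (0.50 ± 0.0651).

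Most vessel genes were lower. Of 22 little-shared endothelial genes, 17 were lower, 1 was higher and 4 were not called (median −0.59). Etv2, the factor that specifies blood and vessel progenitors, had 0.217, 0.404 and 0.362 CPM against 1.44, 1.89 and 1.97 CPM in Quaking KO (−2.42 ± 0.235). Aplnr, the apelin receptor of mesoderm and veins, had 8.35, 9.11 and 10.9 CPM against 27.9, 35.7 and 33.7 CPM in Quaking KO (−1.78 ± 0.124). Of the general endothelial genes, Cdh5, vascular cadherin, had a log2 fold change of −0.01 ± 0.12 and was not called, nor were Tie1 (−0.08), Tek (0.03) and Eng (0.22). The summed level of all 24 listed genes was 657 to 689.6 CPM under the Sam68 label, 551.1 to 626.6 CPM in Quaking KO and 659 to 724.8 CPM in wild type, so the sum did not follow the count of genes. That sum turned on 1 gene, Flt1: over the other 23 genes it was 375.7 to 393.7 CPM under the Sam68 label, 479.7 to 532.1 CPM in Quaking KO and 549.8 to 583.9 CPM in wild type. Flt1, a VEGF receptor that parietal endoderm and trophoblast also make, was higher at 281, 296 and 274 CPM against 71.4, 83.1 and 94.4 CPM in Quaking KO (1.77 ± 0.112).

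Fibroblast and matrix genes were lower in 16 of 24 and higher in 0 (median −1.18). Against wild type, 20 of the 24 were lower in the Sam68-labelled line and 2 in Quaking KO. Pdgfrb, a growth factor receptor of mural cells and fibroblasts, had 52.4, 46.8 and 66 CPM against 135, 118 and 118 CPM in Quaking KO (−1.17 ± 0.112). Ogn, a small proteoglycan, had 1.71, 2.1 and 1.81 CPM against 16.6, 13.7 and 6.87 CPM in Quaking KO (−2.72 ± 0.277), with Quaking KO replicate 3 the lowest of its line, while the same library was the highest in Actc1.

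Most neural genes were lower. Of 20 progenitor genes, 14 were lower and 1 higher (median −0.875), and of 21 neuronal genes 13 were lower and 0 higher (median −1.07). Against wild type, 1 progenitor gene was higher and 7 lower under the Sam68 label (median −0.335), and 8 were higher and 0 lower in Quaking KO (median 0.554). The summed level of 26 neuronal genes, shared members included, was 187.7 to 235.5 CPM under the Sam68 label, 116.6 to 205.4 CPM in Quaking KO and 106.4 to 118.7 CPM in wild type, with overlap between the knockout lines. Nefl, the neurofilament light chain gene, which is not little-shared, made up most of that sum under the Sam68 label, at a mean of 159.9 CPM against 48.61 CPM in Quaking KO (1.72 ± 0.179). Over the other 25 genes the sum was 47.36 to 56.96 CPM under the Sam68 label, 82.02 to 145.2 CPM in Quaking KO and 65.97 to 79.54 CPM in wild type. Zic1, a factor of the neural plate, had 5.01, 3.42 and 6.41 CPM against 13.2, 19.5 and 20.7 CPM in Quaking KO and a mean of 8.07 CPM in wild type (−1.85 ± 0.223). Stmn3, a microtubule regulator of neurons, had 0.88, 0.822 and 0.682 CPM against 3.35, 4.11 and 5.25 CPM in Quaking KO and a mean of 1.29 CPM in wild type (−2.41 ± 0.188). Nes, the intermediate filament of neural progenitors, differed less, at 49.5, 43.4 and 50.8 CPM against 70.4, 78.2 and 86.5 CPM in Quaking KO (−0.71 ± 0.0904). Trophoblast genes were 9 lower and 3 higher of 13. Epithelial genes, in contrast, were 12 higher and 4 lower of 19 (median 0.87), with Cldn6, a claudin of embryonic epithelium, at 424, 441 and 387 CPM against 94.1, 123 and 128 CPM in Quaking KO (1.86 ± 0.111).

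Nanog was far lower at day 10 than at day 0 in both lines. At day 0 Nanog, a pluripotency factor, averaged 235 ± 2.69 CPM under the Sam68 label and 597 ± 18.4 CPM in Quaking KO (SD, n = 3 each). At day 10 Nanog had 8.84, 12.6 and 7.23 CPM against 26, 25.5 and 22.8 CPM in Quaking KO. The labels give the cell type of every sample as embryonic stem cells, while these levels show differentiated material at day 10. Of 13 little-shared pluripotency genes 9 were lower and 4 higher (median −0.964), while the sum over all 20 listed was 868 to 1035 CPM under the Sam68 label and 558.2 to 602.6 CPM in Quaking KO. The 4 higher, Tfcp2l1, Klf4, Lin28a and Tbx3, are also made outside stem cells. Tfcp2l1 had 198, 188 and 146 CPM against 31.6, 30.3 and 26.7 CPM in Quaking KO (2.59 ± 0.115).

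Genes of axial position were lower. Of 25 little-shared Hox genes, 17 were lower and 1 higher (median −1.33). Against wild type, 23 were lower and 1 higher in the Sam68-labelled line (median −1.91), and 11 were lower and 1 higher in Quaking KO (median −0.694). The levels were low throughout, with a sum over 36 Hox genes of 29.9 to 37.2 CPM under the Sam68 label, 72 to 79 CPM in Quaking KO and 84 to 106 CPM in wild type. Hoxa13, of the posterior end, followed that order with 0.528, 0.418 and 0.723 CPM under the Sam68 label, 2.55, 1.81 and 1.74 CPM in Quaking KO and 6.2, 8.03 and 8.28 CPM in wild type. The log2 fold change between the knockout lines was −1.87 ± 0.231. Hoxb1, of the hindbrain, had the largest difference of the 25 (−3.23 ± 0.23), and Hoxc13 was the one that was higher (2.21 ± 0.278), at 1.25, 1.1 and 1.36 CPM against 0.272, 0.236 and 0.289 CPM.

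Signalling genes were examined by role. In the Wnt pathway 18 of 28 little-shared genes were lower and 4 higher (median −0.979). Among ligands, Wnt3a (−1.79), Wnt8a (−2.01) and Wnt3 (−1.26), which act in the primitive streak and tail bud, were lower, and Wnt5a (0.05) was not called. Targets of the pathway that act back on it differed among themselves. Axin2 (−1.30), Nkd1 (−1.08) and Lgr5 (−1.12) were lower, Rnf43, a ubiquitin ligase that removes Wnt receptors, was higher (1.18 ± 0.112), and its relative Znrf3 was not called (−0.06). Secreted inhibitors went both ways. Dkk1 had 10.8, 10.8 and 10.2 CPM against 28.1, 32.4 and 28.9 CPM in Quaking KO (−1.49 ± 0.077), while Sfrp5 had 26.5, 37.4 and 25.8 CPM against 7.02, 11.7 and 10.1 CPM (1.64 ± 0.18). In the BMP and TGF-beta pathway 12 of 27 genes were higher and 6 lower (median 0.151). Bmp6, a ligand, had 12.9, 14 and 12.3 CPM against 3.46, 3.96 and 4.2 CPM in Quaking KO (1.75 ± 0.121), and Grem1, a secreted BMP inhibitor, was lower (−2.12 ± 0.183).

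In the retinoic acid pathway 8 of 14 genes were lower and 5 higher. Aldh1a2, the main enzyme of retinoic acid synthesis in the embryo, had 1.27, 1.91 and 2.52 CPM against 21, 19.6 and 14.5 CPM in Quaking KO and a wild-type mean of 15.7 CPM (−3.27 ± 0.23, adjusted p = 6.83e-07). The other enzymes differed in sign. Rdh10, which makes retinaldehyde, was higher (1.17 ± 0.0976), and so was Cyp26a1, which degrades retinoic acid (1.15 ± 0.134), while the receptor Rarg was lower (−0.91 ± 0.0576). Aldh1a1, a related synthesis enzyme, was higher, at 2.65, 3.85 and 2.2 CPM against 1.03, 0.961 and 1.2 CPM in Quaking KO.

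Hypoxia and glycolysis genes were higher in 17 of 18 little-shared members and lower in 0 (median 0.978). Against wild type, 5 were higher and 2 lower under the Sam68 label (median 0.147), and 0 higher and 17 lower in Quaking KO (median −0.731). Slc2a3, a glucose transporter, had 3114, 2920 and 2484 CPM against 818, 1050 and 1087 CPM in Quaking KO (1.53 ± 0.141), and 1706, 1879 and 1427 CPM in wild type. P4ha1, a collagen prolyl hydroxylase induced in low oxygen, had 805, 827 and 749 CPM against 232, 285 and 305 CPM in Quaking KO (1.53 ± 0.115), with a mean of 443 CPM in wild type. Hk1, which starts glycolysis, had 120, 116 and 111 CPM against 43.4, 50.7 and 54.7 CPM in Quaking KO (1.22 ± 0.0888), with a mean of 74 CPM in wild type. All 3 genes were higher without overlap, and in each the wild-type mean lay between the knockout lines. Car9, the remaining member, did not pass (1.12).

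Other metabolic and growth lists moved by less. Cholesterol synthesis genes were lower in 11 of 17 (median −0.336), with Sqle, the squalene oxidising enzyme, at 59, 55.8 and 58.9 CPM against 102, 94 and 93.8 CPM in Quaking KO (−0.74 ± 0.0579). Insig1, which holds back cholesterol synthesis, was higher (1.49 ± 0.108). Cell cycle genes were lower in 13 of 17 (median −0.234), for example Mcm2, of the replicative helicase, at 150, 152 and 151 CPM against 203, 205 and 205 CPM in Quaking KO (−0.44 ± 0.0526). Nuclear genes of the respiratory chain were mostly not called, 3 higher and 2 lower of 14 (median 0.0221).

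Tissue splicing regulators are of interest because both proteins named in the labels act on splicing. Of 20 little-shared members, 12 were lower and 5 higher (median −0.574). The heart regulators Rbm24 and Rbm20 were higher. Rbm24 had 55.6, 50.8 and 48.1 CPM against 7.77, 14.1 and 16.2 CPM in Quaking KO (2.02 ± 0.203), and Rbm20, which controls titin splicing, had 31.4, 27.1 and 27.7 CPM against 8.13, 10.5 and 12.1 CPM (1.49 ± 0.142). The neuronal regulators were lower, among them Rbfox1 (−2.43 ± 0.254), Rbfox3 (−2.56 ± 0.378), Celf3 (−2.07) and Srrm4 (−1.33). Rbfox1, at means of 0.372 CPM against 2.01 CPM in Quaking KO, and Rbfox3, at 0.0821 against 0.491 CPM, were low in both lines. The muscleblind genes split, Mbnl2 being higher (0.72 ± 0.053) and Mbnl1 lower (−0.66 ± 0.0755). Gene counts carry no isoform, so splicing itself was not analysed here.

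Genes of the Y chromosome differed between the lines at both days. Eif2s3y, a translation factor, had 144, 145 and 132 CPM under the Sam68 label, 22, 19.9 and 24.6 CPM in Quaking KO and 62.4, 64.8 and 62 CPM in wild type (2.66 ± 0.0799, adjusted p = 4.47e-09). Ddx3y, an RNA helicase, had 66.3, 62.5 and 64.3 CPM under the Sam68 label, 10.4, 13.4 and 17.3 CPM in Quaking KO and 74.9, 86.5 and 80.8 CPM in wild type (2.23 ± 0.145). Of 5 such genes tested, 4 were higher and 0 lower under the Sam68 label, and in Quaking KO all 5 were lower than wild type (median −2.56). At day 0 the same 4 genes were already higher, Eif2s3y at 111 ± 1.47 CPM against 26.5 ± 1.65 CPM in Quaking KO stem cells. Among the other chromosomes, the median log2 fold change of little-shared genes at day 10 lay between −0.0359 and 0.0475 except on chromosome 14, where it was 0.156, with 167 genes higher and 81 lower of 389. At day 0 the median of chromosome 14 was 0.0885, also the highest of these chromosomes.

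Stem cells of both lines were compared next, with libraries that share none with day 10. At day 0, 7285 of 11837 little-shared genes were called (61.5%), 29.6% higher and 32% lower, with 836 of them at least 2-fold higher (7.06%) and 366 at least 2-fold lower (3.09%). Of 11479 little-shared genes tested at both days, 2099 were called and at least 2-fold different at day 10 and 1085 at day 0. In 255 genes both held in the same direction, which is 12.1% of the day 10 list and 23.5% of the day 0 list, and in 153 the direction was opposite. The test of the change between the days called 1351 of the 2099 day 10 genes (64.4%), where it called 61% of all little-shared genes.

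Few heart muscle genes were called in stem cells, while most endoderm factors were called already. Cardiac muscle genes were 7 higher and 5 lower of 41 at day 0 (median −0.0229), and the change between days was called upward in 22 and downward in 1, where 33.4% and 27.6% of all little-shared genes were called. Some members had few stem cell counts, for example 15 against 15 in Quaking KO for Popdc2 and 1 against 8 for Hspb7 (sums over 3 libraries). Actn2 (293 against 157) and Myom1 (114 against 69) already had more counts under the Sam68 label, whereas Cox6a2 had fewer (0 against 39). The change between days was 3.09 ± 0.277 for Actn2 and 3.12 ± 0.421 for Myom1, below their day 10 differences. Atp2a2, with far more counts (58544 and 57483), stood at 323 ± 9.76 CPM under the Sam68 label and 323 ± 11.9 CPM in Quaking KO stem cells. Carrier genes likewise were 1 higher and 5 lower of 23 at day 0 (median −0.36). Their stem cell counts ranged widely, for example 3 and 1 for Ttr but 37747 and 48306 for Apoe. By contrast, the endoderm factors were 11 higher and 2 lower of 16 at day 0 (median 0.694), and the basement membrane genes 14 higher and 2 lower of 21 (median 1.82).

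Gata4 averaged 70.9 ± 2.49 CPM in Sam68-labelled stem cells against 7.99 ± 0.356 CPM in Quaking KO stem cells, a log2 difference of 3.15 ± 0.0532 that was larger than the one at day 10 (the change was −1.89 ± 0.0685, adjusted p = 2.68e-11). Gata6, which was not called at day 10, averaged 34.6 ± 0.663 CPM against 4.29 ± 0.19 CPM in Quaking KO at day 0 (3.01 ± 0.0653). Cubn averaged 224 ± 3.49 CPM against 25.8 ± 1.54 CPM in Quaking KO, and Dab2 56.3 ± 0.905 CPM against 5.45 ± 0.59 CPM. Gata4, Gata6, Cubn and Dab2 mark primitive endoderm, and in each the difference was larger in stem cells than at day 10, with changes of −3.10 for Gata6, −2.59 for Cubn and −1.64 for Dab2, all called. The lists they come from went both ways, the change being called upward in 5 and downward in 6 of the 16 endoderm factors, and upward in 6 and downward in 6 of the 19 uptake genes. Among the factors, Hnf4a (2.14 ± 0.117) and Foxa3 (2.83 ± 0.181) changed upward. The change between days was not called for Col4a1, at 909 ± 36.8 CPM against 196 ± 6.05 CPM in Quaking KO stem cells (−0.13 ± 0.238, adjusted p = 0.681). Rbp4 was lower in Sam68-labelled stem cells, with 42 counts over 3 libraries against 92 over 3 Quaking KO libraries (−1.15 ± 0.426, adjusted p = 0.0269).

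**Figure D4:**
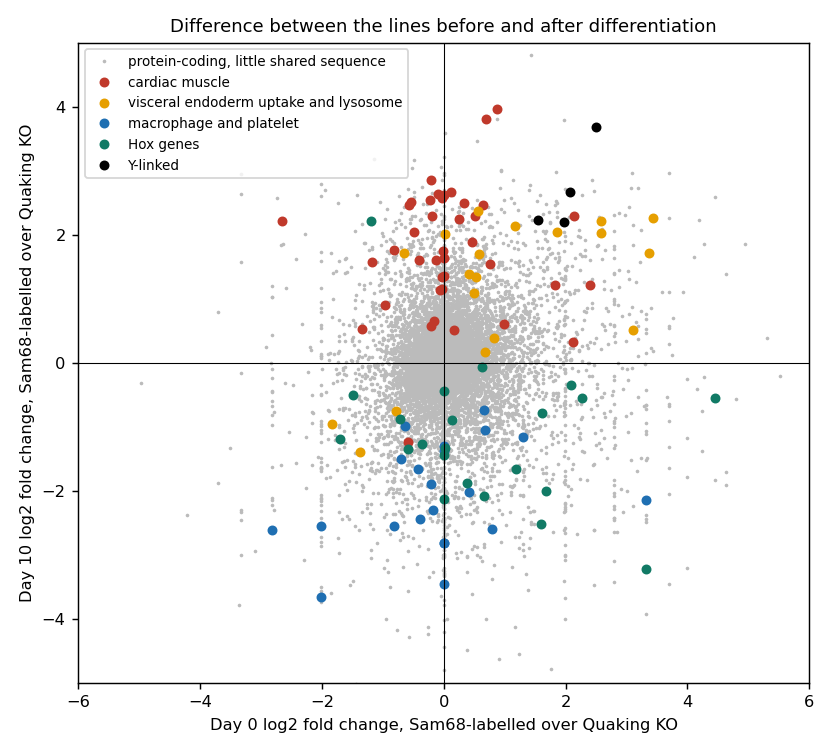
Log2 fold change (Sam68-labelled over Quaking KO) at day 0 (horizontal) and day 10 (vertical) of 11479 little-shared protein-coding genes, one point per gene, with 5 gene lists coloured and 13 genes outside the axes. Cardiac muscle genes spread upward around 0 at day 0, macrophage and Hox genes downward, while the Y-linked genes and many uptake genes lie high on both axes. Vertical stripes are genes with a few counts at day 0.

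Blood, Hox and hypoxia lists had few or mixed calls in stem cells. In stem cells the macrophage and platelet list was 1 higher and 2 lower of 21, with most members at a few counts or none. Hox genes were 5 higher and 3 lower of 22, and hypoxia genes 4 higher and 8 lower of 18 (median 0.0402), with the change between days called upward in 14 of the 18. Respiratory chain genes, which differed little at day 10, were lower in 13 of 14 in Sam68-labelled stem cells (median −0.521), and the change between days was called upward in all 14.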

How the data were processed

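Total RNA of embryoid bodies was depleted of ribosomal RNA and sequenced as stranded paired reads, per the labels' protocols. The values are raw counts per gene as deposited by the authors, made from reads aligned with STAR 2.5.3a after bcl2fastq 2.17.1.14 to GRCm38, per the submitters' processing notes. The sources used here name no counting tool, strand setting or annotation. The 9 libraries of day 10 were fitted together with edgeR 4.0.16 in R 4.3.3 (quasi-likelihood, TMM scaling, genes kept by filterByExpr with a minimum count of 10 and a minimum total of 15). The 12 libraries of both knockout lines at days 0 and 10 gave the day 0 difference and its change. Benjamini-Hochberg adjusted p under 0.05, over all genes tested, was a call. Shared sequence was computed from GENCODE M21 transcripts, which held 51633 of 51826 gene identifiers (99.6%). Alternatives used DESeq2 1.42.0, RLE size factors, other filters, 6 libraries, replicate blocks and single libraries left out. The code was tested on simulated data. Named genes were the 10 largest differences in each direction with non-overlapping libraries and a mean of at least 5 CPM, the STAR genes, the 4 members per list and direction with the smallest p, and the 6 largest changes between days in each direction. The rankings by size left out symbols that start with Gm and a digit or end in Rik. Other list members in the text, called or not, were picked after their values were seen, some to show the range of a list. The comparison, the 36 gene lists and their members were chosen with earlier results of these data known. The depth behind a value is the count total of its library, and the common biological coefficient of variation was 10.6%.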

Additional observations from a re-analysis of the deposited data

Results flagged for a closer look

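The change of the difference between the lines from day 0 to day 10 was tested (edgeR, 12 libraries), and the 6 largest called changes in each direction are given here, among little-shared genes with non-overlapping day 10 libraries and at least 5 CPM in a line at day 10 as scaled over the 12 libraries. Symbols that start with Gm and a digit or end in Rik were left out. Values are the change of the log2 fold change, day 10 minus day 0, and counts are sums over 3 stem cell libraries.

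Upward changes were led by muscle genes. Myl9, a smooth muscle light chain, changed by 5.313, with 80 counts in Sam68-labelled stem cells against 526 in Quaking KO stem cells, and 171, 185 and 160 CPM against 21.2, 29.6 and 36.2 CPM in Quaking KO at day 10. Ccdc141 changed by 4.515, with 283 counts against 1771 in Quaking KO stem cells, and 107, 107 and 90.5 CPM against 22.2, 27.2 and 35.7 CPM in Quaking KO at day 10. Both genes were thus lower at day 0 and higher at day 10 under the Sam68 label. Rbp4, the retinol carrier, changed by 4.341 (42 counts against 92 in Quaking KO stem cells). Cox6a2, a respiratory chain subunit of striated muscle, changed by a fitted 9.28 from 0 counts against 39 in Quaking KO stem cells. Hspb7, a heat shock protein of heart muscle, changed by 4.89 from 1 count against 8, and Adcy8, an adenylyl cyclase, by 4.522 from 0 counts against 4. With 3 counts or fewer in a line, as in these last genes, the fitted value depends on the prior count. The call for Hspb7 ended without Sam68-labelled replicate 2 (4.434) or 3 (4.455) of day 0, and without Quaking KO replicate 1 (4.081) or 2 (5.083) of day 0. The call for Adcy8 ended without Quaking KO replicate 1 of day 0 (3.270).

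Downward changes were led by blood and interferon genes. Rsad2, an interferon-induced enzyme, changed by −4.868, with 116 counts against 15 in Quaking KO stem cells, and 1.87, 1.8 and 1.61 CPM against 7.92, 5.58 and 7.29 CPM in Quaking KO at day 10. Ndnf, a secreted protein, changed by −5.242, with 178 counts against 25, and 5.61, 3.29 and 7.83 CPM against 26.6, 31.4 and 34 CPM in Quaking KO at day 10. Rsad2 and Ndnf were thus higher at day 0 and lower at day 10 under the Sam68 label. The other 4 had at most 20 counts per line at day 0. Oasl2, an interferon-induced gene, changed by −5.33 (20 counts against 2 in Quaking KO). Cd53, of leukocytes, changed by −5.065 (9 against 1), Cx3cr1, a macrophage chemokine receptor, by −5.447 (3 against 0), and Aplnr, the apelin receptor, by −5.76 (5 against 0). The call for Aplnr ended without Sam68-labelled replicate 3 of day 0 (−5.075). Clec12a had a larger fitted change, −7.223 ± 2.07 (adjusted p = 0.00936, edgeR), from 3 counts against 0. It is not among the 12 because its day 10 mean in Quaking KO was 4.935 CPM scaled over the 12 libraries, though 5.179 CPM scaled over the 9 day 10 libraries.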

How the results depend on the processing

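Restricting the fit to little-shared genes gave 7132 calls at day 10, 7305 for the change between days and 7179 at day 0, fewer because fewer genes were tested. The other alternatives kept the counts within 1.5 times. Leaving out each library gave 10170 to 13193 calls at day 10 (6103 to 7968 little-shared), 11188 to 12008 for the change and 13507 to 14979 at day 0. The replicate numbers did not pair the samples (same-number correlations −0.231, −0.0735 and 0.0846). A replicate block gave 11495 calls on 9 libraries and, as an alternative chosen after seeing the data, 11840 on 6. Of 3916 values of 231 named genes, 3870 kept direction and call, 41 were no longer called, 2 were newly called (both Khdrbs1) and 3 turned. Those 3 were Sf1, which ranged between −0.02983 (without Quaking KO replicate 3) and 0.03592 (without Sam68-labelled replicate 2) when a library was left out, and was as low as −0.0471 with little-shared genes only. Sf1 was also positive at 0.01127 without Quaking KO replicate 1 and 0.003828 without wild-type replicate 3, and never called; the cause was not tested. Of the little-shared respiratory chain genes called at day 10, Atp5b, Uqcrfs1, Ndufv1 and Sdhb lost their call in some fits with a library left out. Sdha was called under every alternative.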

Other observations

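Amino acid and endoplasmic reticulum stress genes differed in opposite directions at the 2 days. In stem cells 14 of 17 little-shared members were lower and 2 higher under the Sam68 label (median −0.751), and at day 10 9 were higher and 3 lower (median 0.338). Trib3, a pseudokinase induced by this response, averaged 28.9 ± 0.248 CPM in Sam68-labelled stem cells against 64.6 ± 1.97 CPM in Quaking KO stem cells (SD, n = 3 each). At day 10 Trib3 had 6.88, 7.36 and 8.5 CPM against 3.9, 4.37 and 3.93 CPM in Quaking KO (0.90 ± 0.117), and the change between days was 2.07 ± 0.0952. Immediate early and heat shock genes, taken as 1 list, were 6 higher and 0 lower of 10 at day 10. Among the higher were the immediate early genes Fos (0.96 ± 0.143), part of the AP-1 factor, and Egr1 (1.10 ± 0.151).

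Imprinted genes were 4 higher and 10 lower of 21. Slc38a4, an amino acid transporter, averaged 127.6 CPM under the Sam68 label against 313 CPM in Quaking KO and 330.5 CPM in wild type (−1.29 ± 0.0826). Among neural crest genes 2 were higher and 7 lower of 11, with the largest rise in Mitf, of pigment cells and also other tissues, at 17.6 CPM against 6.46 CPM in Quaking KO (1.45 ± 0.112). Germ cell genes were 5 higher and 2 lower of 12, with the receptor Kit, which blood and other cells also make, at 104.7 CPM against 49.2 CPM in Quaking KO (1.09 ± 0.123). All 3 little-shared replication-dependent histone genes were lower (median −0.929).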
